A study of Mus musculus with 36 samples.

Results

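A set of 10 integrin genes of leukocytes was followed while B cells were turned into macrophages by C/EBPα, a transcription factor of myeloid cells. The members are Itgam (the CD11b chain of the surface antigen Mac-1), Itgax, Itgal, Itgb2, Itga4, Itga5, Itga6, Itgb1, Itgb3 and Itgb7. They were chosen by name, as 10 of the 40354 genes in the count tables, and all 10 have a row in both count tables and both log2 tables.

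The cells were B cells from the bone marrow of C57BL/6J mice, grown on feeder layers of inactivated mouse embryonic fibroblasts (MEFs). A retrovirus brought in C/EBPα fused to the hormone-binding domain of the estrogen receptor (ER), and cells that took it up were enriched through human CD4 made from the same virus. The fusion protein enters the nucleus when 17β-estradiol (E2) is added, and time is counted in hours post induction (hpi). The construct was wild type (WT), R35A, in which arginine 35 of C/EBPα is replaced by alanine, or R35K, in which it is replaced by lysine. RNA-seq was done for each of the 3 constructs before induction (0 hpi) and 1, 3, 6, 18 or 120 h after it, with 2 libraries in each of the 18 groups and 36 in all. Per the paper, the medium for the conversion also held the cytokines IL-7, IL-3, FLT-3, CSF-1 and SCF and was later renewed without IL-7. The part of these cytokines in the changes over time was not tested. All groups share the virus, the ER fusion and the feeders, so the 0 hpi groups are infected cells and not untouched B cells. The labels call the 2 libraries of a group replicates and do not tie them to separate animals, so p-values measure the spread between these libraries. That spread was small. For genes with a mean of at least 50 counts, its variance was 1.08 to 2.13 times that of counting noise (median of the groups 1.28). The R35K libraries come in tables of their own, and a difference of R35K from the other constructs cannot be told apart from a difference between the sets of libraries. At 0 hpi, before induction, edgeR's quasi-likelihood test called 0 of 17277 genes between R35K and wild-type cells.

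Integrins are receptors on the cell surface that hold cells to each other and to matrix. Each is a pair of an α and a β chain, and the chain pairing decides the ligand. The β2 chain (Itgb2) pairs with αL, αM, αX or αD to give the integrins that only leukocytes carry, and αMβ2, or Mac-1, is the standard surface marker of macrophages and granulocytes. The α4 chain pairs with β1 or β7 and binds VCAM-1, fibronectin and MAdCAM-1, and it holds B cell precursors to the stroma of the marrow. The α5β1 integrin binds fibronectin, α6β1 binds laminin, and β3 pairs with αv in many cells and with αIIb in platelets.

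The libraries held between 13044456 and 23131776 counts, with a median of 15471229.5. Levels are given as CPM, a count relative to library size that includes the normalization factors of the fit, and a gene was called changed at a fold of at least 1.5 with an adjusted p of at most 0.05 (edgeR's quasi-likelihood F test, Benjamini-Hochberg adjustment over 17277 genes). All 10 members passed the low-count filter. The lowest count of any member was 12, for Itgax. The summed level of 10 B cell markers went from between 3804 and 4109 CPM at 0 hpi to between 132 and 194 CPM at 120 hpi, and that of 10 macrophage markers went from between 69.6 and 76.7 CPM to between 21150 and 31320 CPM. Counts of Cebpa itself, in which virus and endogenous gene cannot be told apart, gave mean levels of 40.8 CPM ± 3.15 (SD, n = 2) in wild-type, 37.3 ± 3.35 in R35A and 38.0 ± 1.42 in R35K cells at 0 hpi. They differed after induction, with means of 103 CPM in wild-type, 54.2 in R35A and 89.5 in R35K cells at 1 hpi, 38.7, 52.7 and 87.0 at 18 hpi, and 104, 138 and 136 at 120 hpi, and the part of this in the differences between constructs was not tested. The sum over 10 genes of fibroblasts, a measure of RNA from the feeder layer, was 1692 to 1794 CPM in the groups at 0 hpi, 2533 to 4356 CPM at 1 to 18 hpi and 201 to 656.5 CPM at 120 hpi.

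Itgam and Itgax lie next to each other on chromosome 7 of mm10, on the plus strand, Itgam at 128062640 to 128118491 and Itgax at 128129547 to 128150657, with 11.1 kb between them. Itgal is on the same chromosome and strand at 127296260 to 127335138, 728 kb before Itgam, and Itgb2 is on chromosome 10 at 77530252 to 77565708. Itgam and Itgax belong to the same β2 family, and they differed in timing after induction. The 250 bases before the start of each are shown because at 1 hpi the level of Itgam was above wild type in both mutants and that of Itgax below it, though both genes rose in every construct. The sequences are from RefSeq (GRCm38.p6, chr7:128062390-128062639 and chr7:128129300-128129549, plus strand). Capitals mark the core motif of PU.1, a partner of C/EBPα that both B cells and macrophages express, written GAGGAA or, on the other strand, TTCCTC.
Itgam: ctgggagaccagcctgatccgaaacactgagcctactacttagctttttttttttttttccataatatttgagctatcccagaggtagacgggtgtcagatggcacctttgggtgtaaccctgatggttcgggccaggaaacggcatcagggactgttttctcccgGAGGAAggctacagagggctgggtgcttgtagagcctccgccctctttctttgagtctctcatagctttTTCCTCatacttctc
Itgax: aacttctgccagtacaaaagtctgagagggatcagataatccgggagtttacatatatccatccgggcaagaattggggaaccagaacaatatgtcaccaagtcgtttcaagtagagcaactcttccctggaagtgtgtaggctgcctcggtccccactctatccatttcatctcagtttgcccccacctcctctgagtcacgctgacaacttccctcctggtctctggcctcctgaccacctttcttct
The Itgam window held the motif at 2 places, from -84 to -79 and from -15 to -10 counted back from the start, and the Itgax window held none. Of 32851 promoters, 23.3% hold it at least at 1 place in a window of this length. A promoter was at hand for 6 of the 10 members, but not for Itgal, Itgb2, Itga6 or Itgb3, and 3 of the 6 (Itgam, Itga5 and Itgb1) held the motif. A C/EBP motif, TTGCNNAA on either strand, is in 9.56% of all windows and in 0 of these 6. These letter matches are a description of the windows and no measure of binding, and a link of the motif to the levels was not tested.

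The members did not move as a group. Itgam, Itgax, Itgal, Itgb2 and Itgb7 rose from 0 hpi in every construct at every later time. Itga4 fell and came back, Itga5, Itgb1 and Itgb3 were highest between 1 and 18 hpi and lowest at 120 hpi, and Itga6 moved least. In wild-type cells 7 of 10 members passed the test at 1 hpi against 0 hpi (19.7% of all genes tested), then 9 at 3 hpi (23.2%), 9 at 6 (29.6%), 8 at 18 (46.7%) and 8 at 120 hpi (61.8%). R35A cells had 9 of 10 at 1 hpi (37.1%), then 8 (36.7%), 8 (37.4%), 8 (42.4%) and 7 (61.8%). For R35K the counts were 8 (31.9%), 8 (31.7%), 7 (33.2%), 7 (38.5%) and 9 (62.2%) at the same times. The members' median log2 change at 1 hpi was 1.13 in wild-type, 1.78 in R35A and 1.93 in R35K cells, beside medians over all genes of -0.04, 0.01 and 0.00.

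In the steps between 1 and 6 hpi no member passed the test. From 1 to 3 hpi edgeR called 0 of 10 members in wild-type (0.984% of all genes), R35A (0.515%) and R35K cells (0.353%), and from 3 to 6 hpi also 0 of 10 in each (1.04%, 0.168% and 1.22%). DESeq2 called 0 in these 6 steps too, and limma called 0 in each but 1 in the R35K step from 3 to 6 hpi. With an unadjusted p of at most 0.05 and no fold threshold, 7, 8 and 4 members passed from 1 to 3 hpi in wild-type, R35A and R35K cells, and 8, 7 and 7 from 3 to 6 hpi. From 6 to 18 hpi there were 2 calls in wild-type (13.4%), 4 in R35A (4.16%) and 2 in R35K cells (5.42%), and from 18 to 120 hpi 9 (60.5%), 8 (53.8%) and 8 (52.7%).

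**Figure D1:**
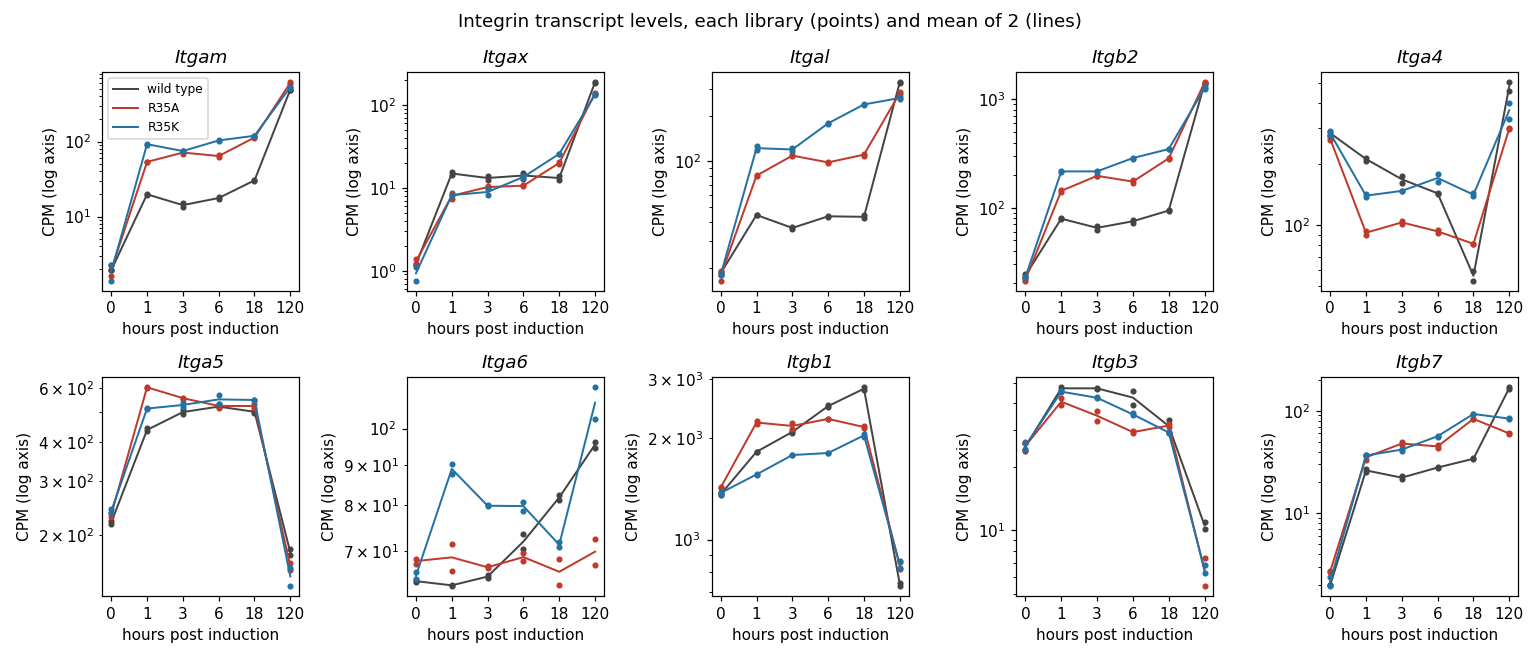
Levels of the 10 integrin genes by hours post induction (0, 1, 3, 6, 18 and 120, equally spaced on the horizontal axis), in CPM on a log axis. Points are the 2 libraries of each group, lines join their means, and colours mark wild-type, R35A and R35K cells. Itgam, Itgal and Itgb2 of both mutants run above wild type from 1 to 18 hpi, and at 120 hpi the differences are under the fold used. Itgax of both mutants lies below wild type at 1 hpi and above it at 18 hpi.

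Itgam codes for CD11b, the α chain of Mac-1. In wild-type cells its libraries gave 1.92 and 1.92 CPM at 0 hpi, 19.6 and 19.9 at 1 hpi, 15.1 and 13.3 at 3 hpi, 17.3 and 17.9 at 6 hpi, 30.9 and 29.8 at 18 hpi and 495 and 493 at 120 hpi. R35A cells gave 2.28 and 1.60, 53.0 and 53.9, 69.0 and 73.7, 65.3 and 62.8, 116 and 110.5, and 591 and 626.5 CPM at these times. R35K cells gave 1.39 and 2.27, 93.9 and 90.6, 74.1 and 75.3, 103 and 104, 119 and 120, and 524 and 541.5 CPM.

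The gene rose in all constructs by 1 hpi, by 3.36 on the log2 scale in wild-type (SE 0.13), 4.81 in R35A (SE 0.10) and 5.66 in R35K cells (SE 0.09), and no library at 1 hpi overlapped one at 0 hpi. The gene had only 28 and 27, 34 and 30, and 24 and 36 counts at 0 hpi in the same order. Its SE here, taken from F, are smaller than counting noise alone would give. At 1 hpi it stood at 4.001% of its own 120 hpi level in wild-type, 8.78% in R35A and 17.3% in R35K cells. From 18 to 120 hpi it rose again by 4.03, 2.43 and 2.16 on the log2 scale, and across the 18 groups it spanned a 332.5-fold range, the widest of the 10 members. The order of the groups was the 3 constructs at 120 hpi, then the mutants at 1 to 18 hpi, then wild type at 18, 1, 6 and 3 hpi, then the groups at 0 hpi. In that order only the neighbours at 0 hpi overlapped between their libraries. In bulk RNA, more cells that express a gene and more RNA of it per cell cannot be told apart.

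Itgax codes for CD11c, an α chain of β2 that macrophages and dendritic cells carry. Wild-type libraries gave 1.17 and 1.21 CPM at 0 hpi, 14.1 and 15.5 at 1 hpi, 13.8 and 12.4 at 3 hpi, 12.9 and 15.2 at 6 hpi, 13.7 and 12.5 at 18 hpi and 189 and 185 at 120 hpi. In R35A cells the levels were 1.21 and 1.38, 7.31 and 8.67, 10.5 and 9.79, 10.3 and 10.8, 20.3 and 19.5, and 138 and 136 CPM. In R35K cells they were 1.102 and 0.757, 8.13 and 8.13, 8.25 and 9.52, 13.2 and 13.8, 25.8 and 25.4, and 131 and 135 CPM. In wild-type cells all libraries from 1 to 18 hpi lay between 12.4 and 15.5 CPM. The mutant libraries lay below wild type at 1 hpi and above it at 18 hpi, with no overlap. The rise from 0 to 1 hpi was 3.64 on the log2 scale in wild-type (SE 0.16), 2.60 in R35A (SE 0.17) and 3.11 in R35K cells (SE 0.19). Counts at 0 hpi were 17 and 17, 18 and 26, and 19 and 12 in the same order, and these SE too are smaller than counting noise would give. Of 7 dendritic cell markers the summed level was between 4.73 and 12.7 CPM in every group.

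Itgal codes for the α chain of LFA-1 (αLβ2), which lymphocytes and myeloid cells both use to bind ICAMs. It began higher than Itgam and Itgax, at 18.7 and 18.16 CPM in wild-type, 18.9 and 16.5 in R35A and 17.9 and 18.0 in R35K cells. At 1 hpi the libraries gave 44.7 and 44.2 CPM in wild-type, 80.4 and 81.0 in R35A and 126 and 119 in R35K cells. At 18 hpi they gave 44.3 and 42.2, 109 and 112, and 238 and 236 CPM, and at 120 hpi 329 and 334, 285 and 278, and 256 and 266 CPM. The order of the constructs thus turned over between 18 and 120 hpi. In R35K cells the level at 18 hpi was 90.7% of that at 120 hpi, against 39.3% in R35A and 13.1% in wild-type cells. R35K was also the construct in which Itgal was not called from 18 to 120 hpi, while it rose by 2.94 in wild-type (SE 0.04) and by 1.34 in R35A cells (SE 0.04) on the log2 scale.

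Itgb2, the β2 chain itself, was at 22.9 and 24.4 CPM in wild-type, 22.0 and 21.1 in R35A and 22.8 and 22.8 in R35K cells at 0 hpi. At 1 hpi its libraries gave 78.1 and 80.2 CPM in wild-type, 146 and 140.4 in R35A and 217 and 215 in R35K cells, and at 18 hpi 95.7 and 92.4, 283 and 288, and 348 and 348 CPM. At 120 hpi the levels were 1422 and 1378 CPM in wild-type, 1456 and 1405 in R35A and 1294 and 1247 in R35K cells. All constructs thus ended at a similar level, having come there by different steps. The R35A and wild-type libraries overlapped at 120 hpi, with a log2 difference of 0.03 (95% interval -0.04 to 0.10), and the R35K libraries lay below both, by 0.14 against wild type (95% interval of the difference -0.21 to -0.07).

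The makeup of the β2 family was compared per kilobase of exon, as the share of each chain in the summed level of Itgal, Itgam, Itgax and Itgad. The fourth chain, Itgad, had at most 5 counts in any library and took under 1% of the sum everywhere. At 0 hpi Itgal made up 81.3% ± 0.0545 (SD, n = 2) in wild-type, 80.1% ± 0.601 in R35A and 82.8% ± 2.25 in R35K cells, so most of these transcripts were of the LFA-1 chain. By 120 hpi Itgam transcripts took the largest share, at 52.4% ± 0.0386 in wild-type, 62.9% ± 1.32 in R35A and 61.1% ± 0.0246 in R35K cells. With the longest transcript as length these shares were 49.0%, 59.7% and 57.85%, so the choice of length moved them by more than the SD.

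The share of Itgal at 1 hpi was alike in the 3 constructs, at 49.0% ± 1.17 in wild-type, 49.9% ± 0.604 in R35A and 48.1% ± 0.373 in R35K cells. What differed was the split of the rest. In wild-type cells at 1 hpi Itgax took 22.3% ± 1.17 and Itgam 28.5% ± 0.0530, while in R35A cells Itgax took 6.75% ± 0.695 and Itgam 43.2% ± 0.236, and in R35K cells 4.38% ± 0.134 and 47.5% ± 0.265. The libraries of wild-type and mutant cells did not overlap in the shares of Itgax and Itgam at 1, 3 or 6 hpi. The distance narrowed by 120 hpi, where Itgax took 20.7% ± 0.294 in wild-type, 14.8% ± 0.474 in R35A and 15.9% ± 0.00821 in R35K cells. At 18 hpi R35K cells stood apart through Itgal, with 55.3% ± 0.190 against 42.9% ± 0.0643 in wild-type and 38.7% ± 1.28 in R35A cells. The summed α level was 0.409 to 0.572 times the Itgb2 level per kilobase in the means of all 18 groups, while the Itgb2 level itself spanned a 66.3-fold range. No test was made on the shares.

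**Figure D2:**
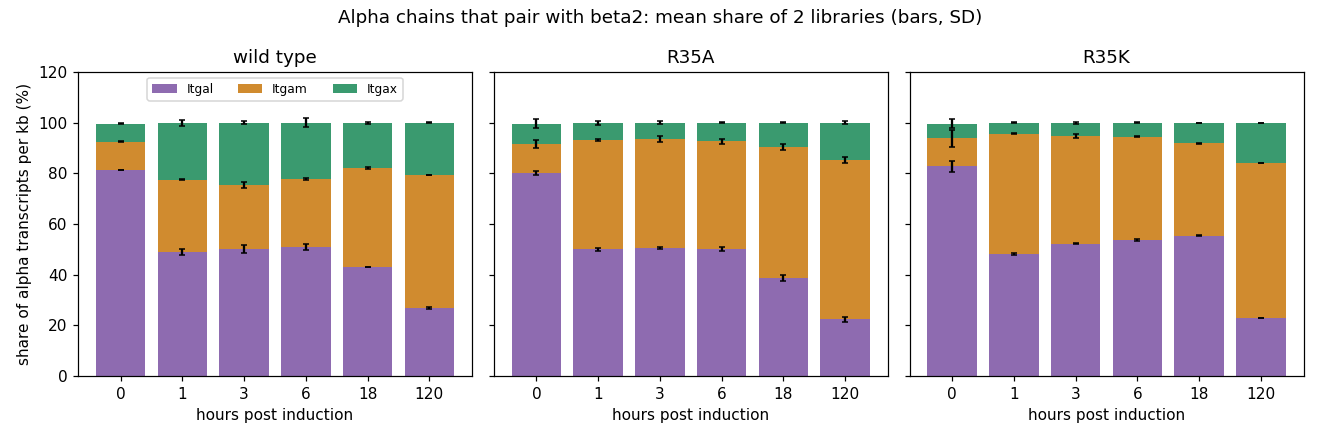
Share (%) of each α chain gene in the level per kilobase summed over Itgal, Itgam, Itgax and Itgad, at each time in the 3 constructs. Bars are means of 2 libraries with their SD, and Itgad is too small to draw. Itgax takes 22.3% in wild-type cells at 1 hpi but 6.75% in R35A and 4.38% in R35K cells.

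Itga4, the α4 chain, was high in the B cells, at 289 and 280 CPM in wild-type, 271 and 263 in R35A and 291 and 277 in R35K cells. In wild-type cells it went to 208 and 215 CPM at 1 hpi, 175 and 162 at 3 hpi, 144 and 143 at 6 hpi and 53.3 and 59.4 at 18 hpi, and then to 458 and 509 at 120 hpi. In R35A cells the levels after 0 hpi were 93.9 and 89.9, 105 and 101, 91.5 and 95.2, 80.9 and 81.2, and 297 and 302 CPM. In R35K cells they were 138 and 142, 148 and 147, 163 and 179, 139 and 144, and 335 and 402 CPM. Wild-type cells had the lowest level of all groups at 18 hpi, after lower values at each time, while the mutant libraries were already low at 1 hpi. At 1 hpi Itga4 fell by 1.54 in R35A (SE 0.05) and by 1.02 in R35K cells (SE 0.05) on the log2 scale, and the wild-type change of -0.42 (SE 0.05) was under the fold used. From 18 to 120 hpi it rose by 3.098 in wild-type, 1.88 in R35A and 1.38 in R35K cells. Against 0 hpi the level at 120 hpi was called higher in wild-type cells, by 0.77 (SE 0.05), and this call was lost without the low-count filter, where the change was 0.57. It was not called in R35A (0.17) or R35K cells (0.38).

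Itgb7 codes for the β7 chain, which pairs with α4 in lymphocytes that home to the gut and with αE in cells of epithelia. It began at 1.99 and 1.99 CPM in wild-type, 2.75 and 2.66 in R35A and 2.38 and 1.96 in R35K cells. Wild-type cells then gave 27.2 and 25.1, 21.4 and 23.1, 28.5 and 27.3, 34.3 and 33.7, and 170.0 and 163 CPM at the 5 later times. R35A cells gave 37.1 and 33.1, 46.6 and 49.0, 46.2 and 43.6, 82.9 and 83.5, and 61.1 and 59.0 CPM. R35K cells gave 37.3 and 35.9, 42.7 and 40.8, 57.1 and 55.7, 92.6 and 93.0, and 82.3 and 85.2 CPM. At 18 hpi the level was 138.6% of that at 120 hpi in R35A and 110.8% in R35K cells, against 20.4% in wild-type cells. From 18 to 120 hpi Itgb7 rose by 2.29 on the log2 scale in wild-type cells (SE 0.05), and the changes of -0.47 in R35A and -0.15 in R35K cells were not called. From 0 to 120 hpi Itgb7 rose by 6.38 in wild-type (SE 0.09), 4.47 in R35A (SE 0.10) and 5.26 in R35K cells (SE 0.09) on the log2 scale. Itgb7 had 29 and 28, 41 and 50, and 41 and 31 counts at 0 hpi in the same order, and these SE are smaller than counting noise would give. Its partner chain Itgae had at most 14 counts in any library. The α4 partner was at its lowest in wild-type cells at 18 hpi, where Itgb7 was already at 34.0 CPM ± 0.445 (SD, n = 2).

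Itga5, Itgb1 and Itgb3 are chains that fibroblasts carry as well, and they are given beside the feeder markers. Itga5 was at 217 and 223 CPM in wild-type cells at 0 hpi, 443 and 434 at 1 hpi, 507 and 497 at 18 hpi and 172 and 180.0 at 120 hpi. It was highest in R35A cells at 1 hpi, at 601 and 603 CPM, and lowest in R35K cells at 120 hpi, at 157 and 137 CPM. From 0 to 1 hpi it rose by 1.00 in wild-type, 1.37 in R35A and 1.103 in R35K cells on the log2 scale (SE 0.04 in each). Itgb1 was the most abundant member in CPM from 0 to 18 hpi. Its means at 0, 1, 18 and 120 hpi were 1364, 1824, 2809 and 737 CPM in wild-type cells. They were 1428, 2229, 2161 and 837 in R35A and 1377, 1562, 2041 and 841.5 in R35K cells. At 120 hpi Itgb2 was the most abundant, at 1400 CPM in wild-type, 1431 in R35A and 1270 in R35K cells. Itgb1 fell from 0 to 120 hpi by 0.89 in wild-type, 0.77 in R35A and 0.71 in R35K cells on the log2 scale. Itgb3 had 23.8 and 26.0 CPM in wild-type cells at 0 hpi, 47.8 and 46.5 at 1 hpi, 33.5 and 29.0 at 18 hpi and 10.2 and 10.99 at 120 hpi, and it fell from 0 to 120 hpi by 1.24 in wild-type, 1.96 in R35A and 1.94 in R35K cells. All 3 genes had their lowest level at 120 hpi in each construct. At 1 hpi Itga5 and Itgb3 were called higher in each, and Itgb1 in R35A cells (0.64) but not in wild-type (0.42) or R35K cells (0.18).

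The feeder markers, too, were highest between 1 and 18 hpi. In wild-type cells 9 of the 10 were called higher at 1 hpi with all 10 higher at 18 hpi, and 10 were lower at 120 hpi. In R35A cells 9 were higher at 1 and at 18 hpi, and at 120 hpi 8 were lower and 1 higher. In R35K cells 7 were higher at 1 hpi and 4 still at 18 hpi, and 8 were lower at 120 hpi. At 120 hpi the markers went apart. Thy1 and Postn were at or under 1.70 CPM in all groups, while Col1a2 kept 83.7 CPM in wild-type, 281 in R35A and 229 in R35K cells, against 288, 304 and 294 at 0 hpi. Pdgfra was at 18.06, 59.8 and 51.7 CPM, against 35.9, 38.4 and 41.6 at 0 hpi, and it was the marker called higher in R35A cells. Over the 18 group means of log2 CPM, which share libraries and scaling, the correlation with the feeder sum was r = 0.865 for Itga5, 0.945 for Itgb1 and 0.881 for Itgb3 and between -0.812 (Itga4) and -0.227 (Itgb7) for the other 7 members, given as a description. Over the 15 groups from 0 to 18 hpi it was 0.831, 0.891 and 0.694 for these 3, and Itgax (0.77) and Itgb7 (0.704) were then above Itgb3. In wild-type cells Itga5 was 13.0% ± 0.0567 (SD, n = 2) of the feeder sum at 0 hpi and 13.4% ± 0.205, 12.9% ± 0.195, 12.7% ± 0.221 and 11.5% ± 0.0358 at 1, 3, 6 and 18 hpi. In R35A cells the ratio was 13.0% at 0 hpi and 15.9% to 17.1% at 1 to 18 hpi, and in R35K cells 13.6% and then 17.3% to 21.7%. For Itgb1 in wild-type cells the ratio was 80.6% at 0 hpi, then 55.8%, 53.85%, 60.8% and 64.5% at 1, 3, 6 and 18 hpi. For Itgb3 it was 1.47%, then 1.44%, 1.21%, 1.04% and 0.717%. From 0 to 1 hpi Itgb1 went from 79.6% to 60.5% in R35A and from 78.5% to 52.5% in R35K cells. Itgb3 went from 1.40% to 1.105% in R35A and from 1.43% to 1.53% in R35K cells. The part of feeder RNA in the levels of Itga5, Itgb1 and Itgb3 was not tested. At 120 hpi the feeder sum was 201 CPM in wild-type, 656.5 in R35A and 522.5 in R35K cells, with Itga5 at 88.2%, 24.2% and 28.2% of it.

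**Figure D3:**
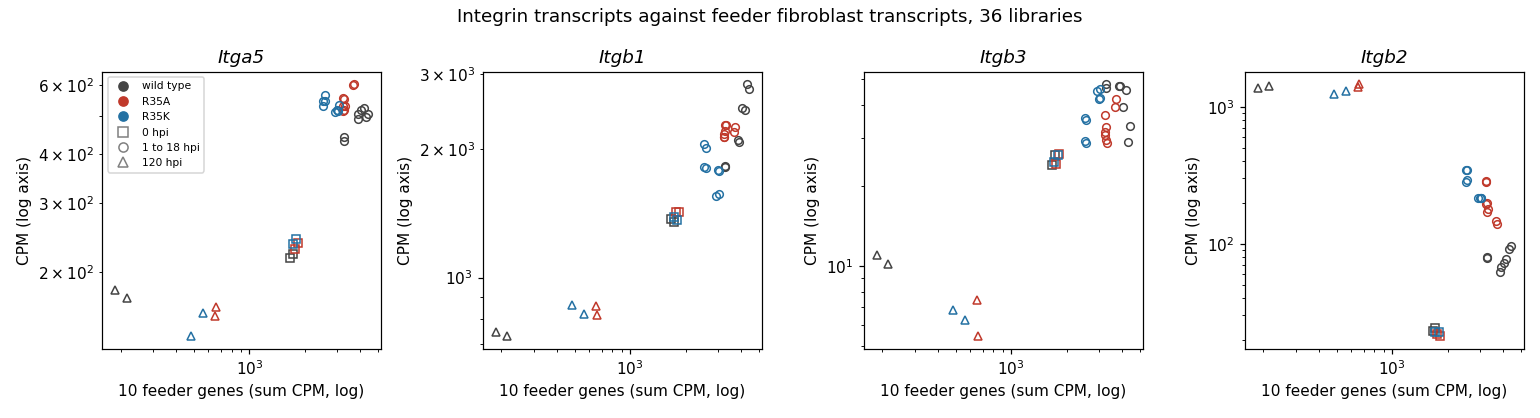
Level of Itga5, Itgb1, Itgb3 and, as a contrast, Itgb2 against the sum of 10 feeder fibroblast genes in all 36 libraries, both in CPM on log axes. Squares are 0 hpi, circles 1 to 18 hpi and triangles 120 hpi, coloured by construct. Itga5, Itgb1 and Itgb3 are low where the feeder sum is low, at 120 hpi, and Itgb2 is highest there.

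Of the partners of β3, Itgav was at 83.6 to 89.2 CPM at 120 hpi and 229.8 to 233.7 CPM at 0 hpi in group means, and Itga2b (αIIb) was at most 9.96 CPM in any group. The sum over 8 megakaryocyte and platelet genes went from between 18.05 and 20.4 CPM at 0 hpi to between 361 and 700.3 CPM at 120 hpi. Nearly all of this was Pf4, a chemokine, at 336 CPM in wild-type, 678 in R35A and 524 in R35K cells. Ppbp and Treml1 also had higher means at 120 hpi than at 0 hpi in each construct. At 120 hpi Ppbp was at 13.96 CPM in wild-type, 12.48 in R35A and 8.78 in R35K cells. Treml1 was at 5.30, 6.44 and 6.97 CPM. Gp1ba, Gp1bb and Itga2b had lower means at 120 hpi than at 0 hpi in each construct, and 3 of the 8 genes were at 3 or fewer counts then.

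Itga6, the α6 chain of laminin receptors, stayed between 63.4 and 108 CPM in all group means, a 1.70-fold span. Wild-type libraries gave 64.0 and 64.5 CPM at 0 hpi, 63.3 and 63.5 at 1 hpi and 96.3 and 94.6 at 120 hpi, and R35A libraries stayed between 63.4 and 72.5 CPM throughout. R35K cells gave 65.9 and 64.6 CPM at 0 hpi, 90.3 and 87.5 at 1 hpi, 70.9 and 71.9 at 18 hpi and 103 and 113 at 120 hpi. Among the changes from 0 hpi only that of R35K cells at 120 hpi passed, by 0.72 (SE 0.05), and it was under the fold used without the low-count filter, at 0.57. The R35K rise from 18 to 120 hpi, by 0.60 (SE 0.05), also passed, but not without R35K library 2 at 120 hpi (0.48), without the low-count filter (0.50), with limma (0.57) or with the R35K tables fitted apart (0.54). In wild-type cells the changes to 120 hpi were 0.57 from 0 hpi and 0.22 from 18 hpi (SE 0.05 in each), and neither passed.

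The constructs were next compared at the same time. At 0 hpi edgeR called 0 of 10 members between R35A and wild type (0.0% of all genes), R35K and wild type (0.0%) and R35K and R35A (0.00579%), as did DESeq2 and limma, and with an unadjusted p of at most 0.05 and no fold threshold 2, 1 and 0 members passed. R35A cells then differed from wild type in 5 of 10 members at 1 hpi (19.4%), 3 hpi (16.8%), 6 hpi (13.6%) and 18 hpi (10.0%) and in 3 at 120 hpi (18.4%). R35K cells differed in 5 (15.2%), 4 (13.0%), 4 (14.9%), 6 (15.3%) and 2 members (13.8%) in the same order of times. The wild-type libraries are shared by these comparisons.

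Itgam, Itgal and Itgb2 were higher in both mutants at 1, 3, 6 and 18 hpi. For Itgam the log2 difference from wild type was 1.43, 2.33, 1.86 and 1.90 in R35A and 2.22, 2.40, 2.55 and 1.98 in R35K cells at these times, with SE between 0.05 and 0.06. At 3 and 6 hpi these SE are smaller than counting noise alone would give. For Itgal it was 0.86, 1.58, 1.18 and 1.36 in R35A and 1.46, 1.72, 2.03 and 2.45 in R35K cells. For Itgb2 it was 0.85, 1.60, 1.22 and 1.60 in R35A and 1.45, 1.73, 1.94 and 1.89 in R35K cells. At 120 hpi none of the 3 passed in either mutant, with differences of 0.30, -0.23 and 0.03 in R35A and 0.11, -0.34 and -0.14 in R35K cells.

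Itgax went the other way at the start. It was lower in R35A cells at 1 hpi by 0.90 (log2 difference -0.90, SE 0.10, adjusted p = 4.5e-11) and in R35K cells by 0.87 (-0.87, SE 0.10, adjusted p = 2.8e-10), in edgeR's fit. These SE are smaller than counting noise alone would give. At 18 hpi Itgax was higher, by 0.60 in R35A (SE 0.09) and 0.97 in R35K cells (SE 0.08), though the R35A call was lost with DESeq2 size factors (0.53), DESeq2 (0.53) and limma (0.54) and without wild-type library 2 (0.54) or R35A library 1 (0.58). At 120 hpi it was -0.45 and -0.49 and not called.

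Itga4 was lower in the mutants at 1 hpi, by 1.21 in R35A (log2 difference -1.21, SE 0.05) and by 0.60 in R35K cells (-0.60, SE 0.05), the second being under the fold used without wild-type library 2 (-0.58) or R35K library 1 (-0.58). By 18 hpi the direction had turned, with R35K cells higher by 1.32 (SE 0.06) and R35A cells at 0.52 (SE 0.06), not called. In R35A cells it was lower again at 120 hpi, at -0.69 (SE 0.05).

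Itgb7 crossed in the opposite order. It was higher in R35A cells at 3, 6 and 18 hpi by 1.102, 0.68 and 1.29 and in R35K cells by 0.90, 1.01 and 1.45, and at 120 hpi it was lower in both, at -1.47 in R35A (SE 0.05) and -0.99 in R35K cells (SE 0.05). Itgb3 was also lower at 120 hpi, at -0.70 in R35A (SE 0.14) and -0.69 in R35K cells (SE 0.15), while the feeder sum was higher in the mutants, in each of which 8 of the 10 feeder markers were called higher and 1, Thy1, lower. Without R35A library 1 the R35A difference of Itgb3 was -0.50 and not called. Itga5, Itgb1 and Itga6 were called in no comparison of a mutant with wild type, with differences from -0.46 to 0.49.

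**Figure D4:**
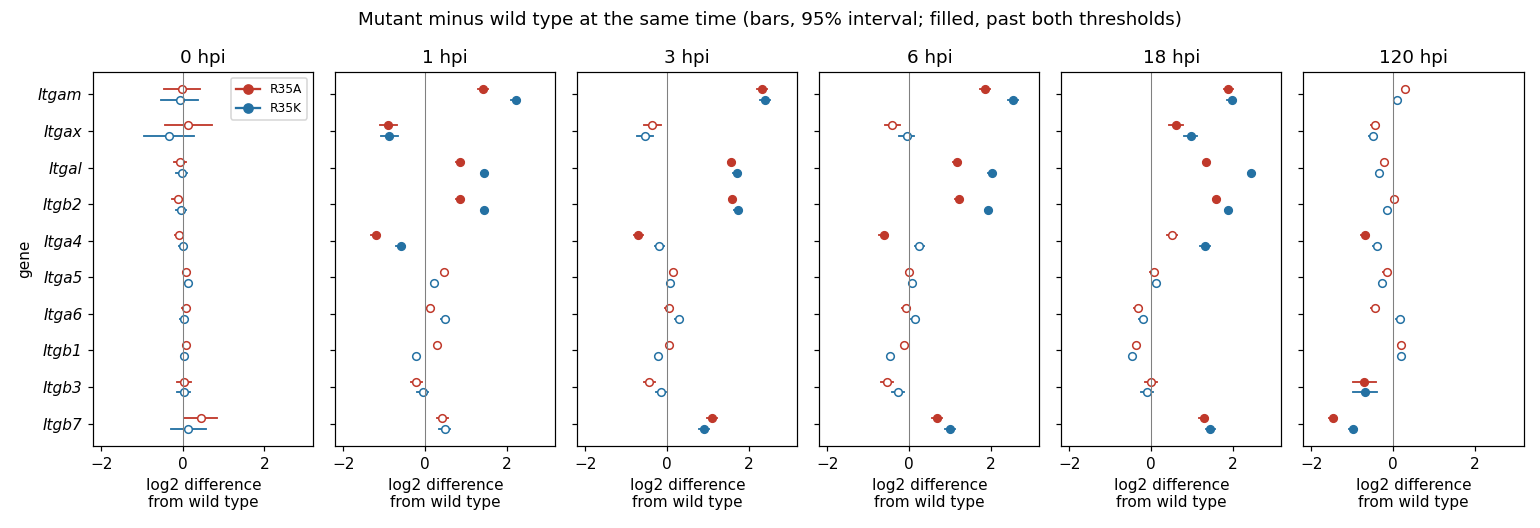
Difference of R35A (red) and R35K (blue) cells from wild-type cells at the same time, in log2 units, for the 10 members. Bars are 95% intervals, some of them narrower than counting noise alone would give, and filled points passed the fold and adjusted p thresholds. Itgam, Itgal and Itgb2 lie to the right from 1 to 18 hpi, Itgax and Itga4 to the left at 1 hpi, and Itgb7 and Itgb3 to the left at 120 hpi.

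The change from 0 hpi was also compared between constructs, by the interaction term in edgeR. For R35A against wild type 5 of 10 members passed for the change to 1 hpi (13.9% of all genes), 5 to 3 hpi (12.7%), 3 to 6 hpi (10.1%), 5 to 18 hpi (8.32%) and 3 to 120 hpi (14.2%). For R35K against wild type the counts were 4 (11.9%), 4 (10.0%), 4 (12.2%), 6 (13.3%) and 2 (10.1%), and for R35K against R35A 1 (5.83%), 0 (3.02%), 5 (5.89%), 2 (3.44%) and 2 (1.61%). For the change to 3 hpi between the mutants DESeq2 and limma also called 0, and 5 members had an unadjusted p of at most 0.05.

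R35A and R35K, which replace the same arginine by alanine or by lysine, were compared in the same way. Of 10 members, 4 differed at 1 hpi (8.49% of all genes called), then 0 at 3 hpi (5.04%), 4 at 6 (9.18%), 2 at 18 (5.77%) and 1 at 120 hpi (2.85%), and those called were higher in R35K cells. At 3 hpi DESeq2 and limma also called 0, and 7 members passed an unadjusted p of at most 0.05 with no fold threshold. At 1 hpi the 4 were Itgam (0.79, SE 0.05), Itgal (0.60), Itgb2 (0.60) and Itga4 (0.61). The last 3 lost their calls with DESeq2 size factors, DESeq2, limma or no low-count filter, with values from 0.54 to 0.56. Itgal also lost it without R35K library 1 (0.56), and Itgb2 (0.57) and Itga4 (0.58) without R35A library 2. At 6 hpi the same 4 genes were higher by 0.69, 0.85, 0.72 and 0.87, and at 18 hpi Itgal by 1.095 (SE 0.04) and Itga4 by 0.80 (SE 0.06). Itgax did not differ at 1 hpi by more than its interval, with 0.03 (95% interval -0.21 to 0.26), nor did Itgb7, with 0.06 (-0.06 to 0.18). At 120 hpi Itga6 was higher in R35K cells by 0.62 (SE 0.05), which fell to 0.57 without R35A library 1 and to 0.56 without R35K library 2, under the fold used.

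Other genes of the pathway were counted from lists of names. Of 18 other genes with integrin names, among them Itgb1bp1 for a β1-binding protein, 15 were tested. In wild-type cells 4 were higher and 1 lower at 1 hpi and 1 higher and 12 lower at 120 hpi. Their median log2 change at 120 hpi was -1.42, beside -0.23 over all genes and 2.47 for the members. R35A cells had 8 higher and 2 lower at 1 hpi and 3 and 9 at 120 hpi, and R35K cells 5 and 1, then 3 and 10. Of 12 ligand genes tested, 4 were higher and 1 lower at 1 hpi and 4 and 4 at 120 hpi in wild-type cells, 8 and 1, then 5 and 4 in R35A, and 5 and 1, then 5 and 5 in R35K cells. Another list held 28 genes that regulate integrin activation, up or down, or tie integrins to the cytoskeleton. Of these, 4 were higher and 5 lower at 1 hpi and 14 and 8 at 120 hpi in wild-type cells. The counts were 9 and 6, then 12 and 9 in R35A, and 7 and 5, then 11 and 7 in R35K cells. Over all genes tested, calls in either direction made up 19.7% at 1 hpi and 61.8% at 120 hpi in wild-type, 37.1% and 61.8% in R35A and 31.9% and 62.2% in R35K cells.

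Of these lists the genes that rose most from 0 to 120 hpi were Cdh1, Fyb and C3. Cdh1 codes for E-cadherin, the ligand of αEβ7, and had 1 to 7 counts per library at 0 hpi, with 227 CPM ± 2.17 in wild-type, 429 ± 14.9 in R35A and 293 ± 8.55 in R35K cells at 120 hpi (SD, n = 2). Fyb codes for ADAP, an adaptor that joins receptor signals to β2 activation, and went from 1.40 CPM ± 0.136 at 0 hpi to 18.14 ± 1.103 at 1 hpi and 463 ± 9.71 at 120 hpi in wild-type cells. At 1 hpi it was 59.9 CPM ± 0.408 in R35A and 96.4 ± 1.86 in R35K cells, the same order of constructs as Itgam. C3, the complement protein whose fragment iC3b is bound by Mac-1, went from 3.57 CPM ± 0.293 to 489 ± 1.07 in wild-type, 603 ± 19.3 in R35A and 354 ± 13.0 in R35K cells at 120 hpi.

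The largest fitted falls were those of Fermt1, Tln2 and Vcam1, of which that of Fermt1 is a fit against 0 counts. Fermt1 codes for kindlin-1, the form of epithelia, and was low at the start, at 1.08 CPM ± 0.0785 in wild-type cells, with 0 counts in every library at 120 hpi, which is at least 3.93-fold lower in wild-type, 4.34-fold in R35A and 5.03-fold in R35K cells against 3 counts per library. Tln2, a talin, went from 34.9 CPM ± 0.792 to 1.57 ± 0.476 in wild-type cells. Vcam1, the ligand of α4β1 on stroma, went from 68.2 CPM ± 3.46 at 0 hpi to 93.0 ± 1.89 at 1 hpi and 3.12 ± 0.0414 at 120 hpi in wild-type cells, and R35A cells gave 158 ± 1.86 at 1 hpi and 10.4 ± 2.15 at 120 hpi.

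The genes whose pattern was most like that of a member were sought over the 18 group means of log2(CPM + 1) among 10970 genes that reached 10 CPM in a group. Nearest to Itgam were Clec5a (r = 0.998), Msr1 (0.998) and Pirb (0.997), and nearest to Itgb2 were Alox5ap (0.998), Hk3 (0.996) and Adam8 (0.996). For Itgax the nearest were Atp8b4 (0.985), Grk5 (0.979) and Mindy3 (0.979). Atp8b4 had 23.6 CPM in wild-type, 17.8 in R35A and 23.6 in R35K cells at 1 hpi. For Itga4 the nearest were Rassf5 (0.985), Crip1 (0.984) and Cxcr4 (0.983), and Cxcr4, the receptor that keeps B cell precursors in the marrow, had means of 317, 218 and 435 CPM at 0, 1 and 120 hpi in wild-type cells and 290.0, 92.2 and 247 CPM with R35A. For Itgb7 they were Ifitm1 (0.989), Mmp8 (0.975) and Cd86 (0.975), and Ifitm1 ended at 783 CPM in wild-type, 229 in R35A and 333 in R35K cells at 120 hpi. These correlations describe 18 groups that share 0 hpi and 120 hpi extremes and carry no test. Among the members Itgam and Itgb2 were the closest pair of the β2 family (r = 0.99), and Itgam and Itgax, neighbours on the chromosome, were at 0.899.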

How the data were processed

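RNA-seq was read from 36 libraries of infected mouse B cells. Per the labels, libraries were made with a stranded kit and read as 50-base single ends. Alignment by the authors was to mm10, with STAR (2.5.0a), and they deposited raw counts per gene, and deposited log2 normalized counts made with DESeq2 (1.14.1). The annotation release and the strand column counted are not given in the sources used here. In every library all deposited log2 values were recovered as log2(count/size factor + 1) within 1e-06. Wild-type and R35A libraries share tables, and R35K libraries have their own, normalized separately, so the counts of all 36 were joined and scaled together.

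The counts were fitted in edgeR (4.0.16, R 4.3.3) with TMM factors, its default low-count filter and 1 model of 18 groups, giving 60 comparisons over 17277 genes. SE is the log2 change divided by the root of F. For large changes from low counts, as at 0 hpi, this is smaller than counting noise alone would give. The same holds for some differences between constructs, as for Itgam at 3 and 6 hpi and Itgax at 1 hpi. At low counts edgeR bounds p from below, so at 0 hpi an interval can exclude 0 where the test did not pass. Alternatives used DESeq2 (1.42.0) and limma (3.58.1) on the deposited log2 values. The scripts were tested on simulated data. CPM per kilobase used the summed exon length of GENCODE vM21, and 96.9% of gene symbols matched that annotation. Motifs were sought on both strands, GAGGAA for PU.1 and TTGCNNAA for C/EBP.

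The members, the gene lists and the tests were chosen with earlier results of these data known. From the lists, the 3 genes with the largest rise and the 3 with the largest fall from 0 to 120 hpi in wild-type cells were named, among those called in all 3 constructs with no overlap of libraries. For 5 members the 3 genes of highest correlation are named. Replicate numbers did not pair the libraries. The labels give only numbers, and over 153 pairs of groups the median correlation of deviations was -0.005 (-0.423 to 0.287).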

Additional observations from a re-analysis of the deposited data

Results flagged for a closer look

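The change from 0 hpi differed between constructs in 51 tests of the difference itself (interaction terms in edgeR, at least 1.5-fold, Benjamini-Hochberg adjusted p of at most 0.05). Each value is the log2 change in the first construct minus that in the second, from 2 libraries per group, and comparisons with wild type share its libraries.

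Between R35A and wild-type cells the difference in the change to 1 hpi was 1.45 for Itgam, -1.03 for Itgax, 0.927 for Itgal, 0.986 for Itgb2 and -1.11 for Itga4. To 3 hpi it was 2.35 for Itgam, 1.65 for Itgal, 1.73 for Itgb2, -0.612 for Itga4 and 0.664 for Itgb7. To 6 hpi it was 1.87 for Itgam, 1.24 for Itgal and 1.35 for Itgb2. To 18 hpi it was 1.92 for Itgam, 1.43 for Itgal, 1.74 for Itgb2, 0.615 for Itga4 and 0.853 for Itgb7. To 120 hpi it was -0.599 for Itga4, -0.722 for Itgb3 and -1.91 for Itgb7. Leaving out 1 library ended the call of Itgax to 1 hpi (-0.923, R35A 0 hpi library 2), of Itgb3 to 120 hpi (-0.523, R35A 120 hpi library 1), of Itgb7 to 18 hpi (0.854 and 0.85, either wild-type 0 hpi library) and of Itga4 at 3 times. The last were to 3 hpi (-0.558, wild-type 3 hpi library 1), 18 hpi (0.541, wild-type 18 hpi library 1) and 120 hpi (-0.525 to -0.581, library 2 of wild type at 0 or 120 hpi or library 1 of R35A at 0 or 120 hpi). For Itgb7 to 3 hpi the call was lost without any of 6 libraries (0.607 to 0.683, both at 0 hpi of either construct, wild-type 3 hpi library 1 and R35A 3 hpi library 2) and without the low-count filter (0.634). Itga4 also lost it without that filter to 120 hpi (-0.54), with limma to 3 hpi (-0.581) and with DESeq2, its size factors or limma to 18 hpi (0.541 to 0.553).

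Between R35K and wild-type cells the difference in the change to 1 hpi was 2.31 for Itgam, 1.49 for Itgal, 1.5 for Itgb2 and -0.598 for Itga4. To 3 hpi it was 2.48 for Itgam, 1.75 for Itgal, 1.78 for Itgb2 and 0.776 for Itgb7. To 6 hpi it was 2.63 for Itgam, 2.06 for Itgal, 1.99 for Itgb2 and 0.888 for Itgb7. To 18 hpi it was 2.06 for Itgam, 1.31 for Itgax, 2.49 for Itgal, 1.94 for Itgb2, 1.33 for Itga4 and 1.32 for Itgb7. To 120 hpi it was -0.705 for Itgb3 and -1.12 for Itgb7. The call of Itga4 to 1 hpi was lost without library 2 of wild type or library 1 of R35K at 0 or 1 hpi (-0.563 to -0.579). That of Itgb7 to 3 hpi was lost without either wild-type library (0.776 and 0.772) or R35K library 2 (0.648) at 0 hpi and without the low-count filter (0.751). Itgax was not called to 1 hpi, at -0.53 (95% interval -1.20 to 0.14).

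Between R35K and R35A cells the difference in the change to 1 hpi was 0.855 for Itgam. To 6 hpi it was 0.761 for Itgam, 0.82 for Itgal, 0.64 for Itgb2, 0.781 for Itga4 and 0.643 for Itgb7. To 18 hpi it was 1.06 for Itgal and 0.712 for Itga4. To 120 hpi it was 0.684 for Itga6 and 0.793 for Itgb7. Without R35A or R35K library 1 at 0 hpi the calls of Itgam were lost to 1 hpi (0.606 and 0.532) and to 6 hpi (0.513 and 0.439), the second also without the low-count filter (0.715). To 6 hpi Itgb2 lost it with DESeq2, its size factors or limma (0.573 to 0.576), and Itgb7 with these or without the low-count filter (0.577 to 0.597) and without either R35A 0 hpi library, R35A 6 hpi library 2 or R35K 0 hpi library 2 (0.518 to 0.672). To 120 hpi Itgb7 lost it without either R35A library or R35K library 2 at 0 hpi (0.668 to 0.821).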

How the results depend on the processing

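Over all alternatives, 3425 of 3509 repeats of a member's call kept direction and threshold, 84 fell under the threshold and 0 reversed. The count of members called was within 1.5 times with an unadjusted p and with a minimum of 10 counts per library in a group (0 of 60 moved each), and with the tables fitted apart (0 of 38). With the replicate number as a block, 7 members were called in wild-type cells at 1 hpi as without it, 259 of 259 calls held and 0 of 60 counts moved.

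With no fold threshold, the steps from 1 to 3, 3 to 6 and 6 to 18 hpi had 7, 7 and 7 calls in wild-type, 7, 3 and 7 in R35A and 3, 7 and 9 in R35K cells. R35A against wild type then had 10, 8, 8, 8 and 9 at the 5 times after induction, and 6 and 6 in the change to 6 and 120 hpi. R35K against wild type had 9, 8, 8 and 10 at 1, 3, 6 and 120 hpi, and 7, 7 and 6 in the change to 3, 6 and 120 hpi. R35K against R35A had 7, 7, 9, 6 and 6 at those times, and 7, 3, 8 and 4 in the change to 1, 3, 6 and 120 hpi. R35K against R35A at 1 hpi had 1 call in place of 4 with DESeq2, DESeq2 size factors, no low-count filter or limma, and its change to 6 hpi had 3 in place of 5 with the first 3 of these. Limma gave 1 in place of 0 in the R35K step from 3 to 6 hpi.

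Leaving out 1 library leaves 1 in its group, assumed to vary like the others. Counts then ranged from 0 to 2 in the R35K step from 3 to 6 hpi (without 3 hpi library 2 or 6 hpi library 1). R35A against wild type ranged from 3 to 5 in the change to 3 hpi (wild-type 3 hpi library 1) and from 1 to 4 in that to 120 hpi (R35A 120 hpi library 1). R35K against R35A ranged from 2 to 4 at 1 hpi (R35A 1 hpi library 2), from 0 to 1 at 120 hpi (R35A library 1 or R35K library 2), and in the change from 0 to 2 at 1 hpi (either R35A 0 hpi library, R35K 0 hpi library 1 or 1 hpi library 2), 3 to 5 at 6 hpi (R35A 0 hpi library 1) and 1 to 2 at 120 hpi (either R35A 0 hpi library or R35K 0 hpi library 2). The cause was not tested. DESeq2 size factors moved the median of all genes by over 0.1 (log2) only for wild type from 0 to 18 hpi (0.123) and R35K against wild type at 18 hpi (-0.105) and in its change (-0.106). At 0 hpi the low counts of Itgam, Itgax and Itgb7 limit precision, and the SE given for their changes from 0 hpi are too small. Some SE given for differences between constructs are too small as well.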
